A study of Mus musculus with 2 samples.

Results

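The genes described here are splicing regulators and neuronal RNA-binding genes, chosen by symbol: the hnRNP genes, the SR genes (Sfrs or Srsf), the Nova, Elavl, Celf or Cugbp, Mbnl, Ptbp, Rbfox or A2bp1, Qk and Msi genes, and the numbered Rbm genes. The rule found 95 of the 22296 gene symbols on the arrays, with 2139 probe sets, and 93 of the 95 could be evaluated. Expression was measured on 2 exon-level microarrays, 1 for AgRP neurons of FoxO1 knockout mice (KO) and 1 for AgRP neurons of mice with a heterozygous FoxO1 knockout (HET), which is the control here and also carries a deleted FoxO1 allele. AgRP neurons are hypothalamic cells that promote feeding, and FoxO1 is a transcription factor restrained by insulin. Both genotypes were collected by FACS from mice of mixed background, with littermates matched for age and sex. Ages, the promoter that drove the deletion, the number of animals and any pooling were not stated in the labels.

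Splicing regulators decide which exons of a precursor RNA are kept. SR proteins bind exons and mostly promote their inclusion, while hnRNP proteins coat nascent RNA and often oppose it. On this general layer, cell types place their own regulators, such as Nova and Rbfox proteins in neurons and Quaking in myelinating glia, and Elavl, Celf and Musashi proteins also act on the stability and translation of mature mRNA.

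Values are on a log2 scale, and each difference is KO minus HET. Probe sets entered with a mean over both arrays of at least 5.86, the median over all probe sets and the floor used below. Genes with at least 3 of them were evaluated. A gene's difference and its level on each array are medians over those probe sets, taken separately. The levels of a gene can thus differ by more or less than its difference, or in the other direction. The call of 2-fold higher or lower asked for a difference of at least 1 in size and the same direction in 75% or more of the gene's probe sets. With 1 array per genotype there is no test and no replicate error. The SD beside a difference is over the probe sets of that gene, which share both arrays, and it says nothing of the spread between mice. Agrp itself stood at 12.44 in KO and 11.97 in HET, and Npy at 12.19 and 12.31, so the labelled cell type showed its defining peptides on both. Their differences were 0.27 and 0.14, with 6 of 7 and 4 of 6 probe sets higher. Foxo1, the targeted gene, was at 7.46 in KO and 7.98 in HET, a difference of -0.48 (SD 0.53 over 8 probe sets). The labels do not tell which of these 8 fall in the deleted stretch. Gpr17, the receptor named in the series title, was at 6.40 in KO and 8.67 in HET, a difference of -2.10 (SD 1.48 over 5 probe sets).

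Of the 93 evaluated members, 2 were called at least 2-fold lower in KO, Nova1 and Qk, where 1.12% of all 16639 evaluated genes were. Of the same 93, 1 was called at least 2-fold higher, Sfrs12ip1, where 1.13% of all genes were. With 1 and 2 calls among 93 genes, or 1.08% and 2.15%, these shares are no result about the members as a set. Members had a median difference of -0.06, against -0.11 over all evaluated genes. A difference above 0 was seen in 44 members, or 47.3%, where 34.8% of all genes had one. Members were also brighter, with a median KO level of 8.85 against 7.54 over all genes. With the trend of the difference on level removed, 48 members, or 51.6%, lay above 0, against 43.1% of all genes. With differences centred on the median over genes, 55 members, or 59.1%, lay above 0. At a 1.5-fold rule with the same agreement among probe sets, 3 members were higher, where 3.28% of all genes were, and 4 were lower, where 4.9% of all genes were. At 3.23% and 4.30% of members, both counts are near those shares and are no result about the members as a set. The 3 higher ones were Sfrs12ip1, Sfrs17b and Sfrs7, of 19 evaluated genes in the SR group. Of the 4 lower ones, Rbm10 is 1 of 37 Rbm genes. Nova1, Qk and A2bp1 are 3 of 17 tissue-restricted regulators, the members outside the hnRNP, SR and Rbm groups.

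**Figure D1:**
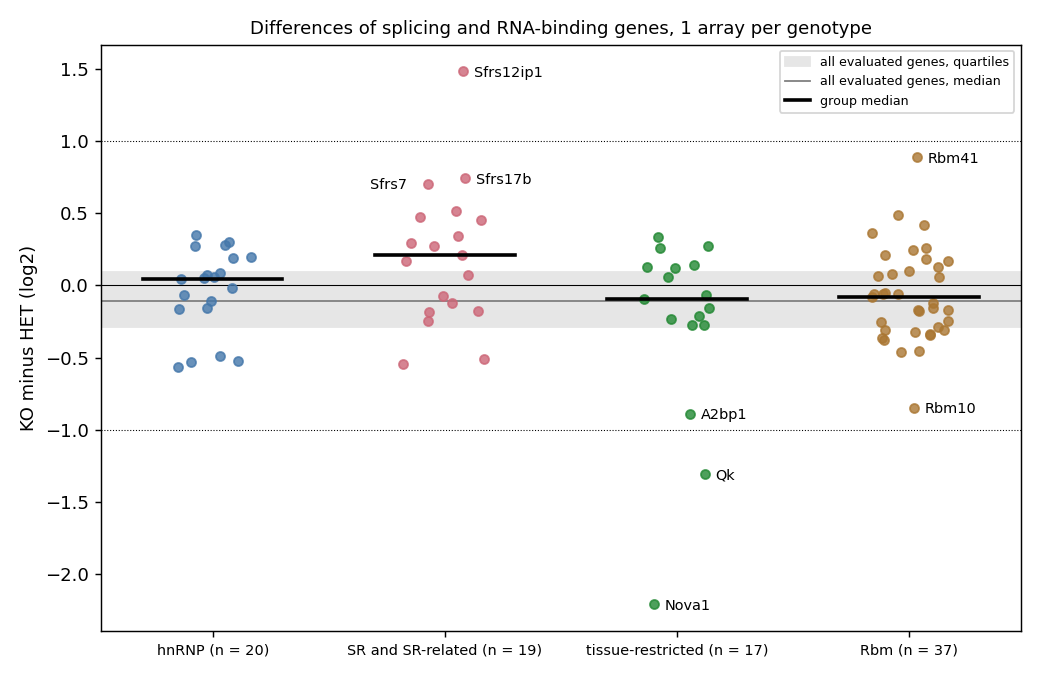
Difference of each evaluated member (KO minus HET, log2) by group, with 1 point per gene, the group median as a black bar, and the quartiles and median of all 16639 evaluated genes in grey. Dotted lines mark a 2-fold difference. Nova1 at -2.21 and Qk at -1.31 lie below the lower line and Sfrs12ip1 at 1.49 above the upper one.

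Nova1, a neuron-specific regulator that binds clustered sites in precursor RNA and sets exon choice in many synaptic genes, had the lowest difference of all members. Its 7 probe sets past the floor ran from 4.19 to 9.55 in KO, with a median of 7.15. The same 7 ran from 6.39 to 10.51 in HET, with a median of 9.47. All 7 were lower in KO, so the gene difference was -2.21 (SD 1.32 over 7 probe sets), or 4.63-fold lower. Single probe sets differed widely in size. The most changed stood at 4.19 in KO and 8.63 in HET, a difference of -4.45, and the least changed at 5.75 and 6.39, a difference of -0.65. Between them lay probe sets at 7.76, 7.15 and 7.52 in KO, against 10.51, 9.47 and 9.73 in HET, with differences of -2.75, -2.32 and -2.21. A further pair stood at 6.29 and 9.55 in KO, against 7.47 and 10.45 in HET. The 1 remaining Nova1 probe set went the other way, at 7.96 in KO and 3.63 in HET, a difference of 4.33. It lay just under the floor and so is outside the 7. With it included the gene difference was -1.70, still called lower with 7 of 8 probe sets agreeing. Nova1 ranked 15 from the lowest among the 16639 evaluated genes.

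Nova2, the paralog of Nova1 with a similar RNA preference, stood at 7.99 in KO and 8.52 in HET. Its difference was -0.23 (SD 0.68, 11 of 16 probe sets lower), nearer 0 than that of Nova1. Of 8 pan-neuronal markers 0 were above 0, where 34.8% of all genes were, and 2 were above the median of all genes. Their median was -0.16, near the -0.11 of all genes, with a lowest value of -0.97 for Syt1, the synaptic vesicle calcium sensor. Their levels were 7.84 to 11.33 in KO and 8.46 to 11.36 in HET, with sums of 75.9 and 78.5. AgRP neuron markers had a median of 0.14, with 5 of 9 above 0 and summed levels of 86.5 and 85.5. Slc17a6, the glutamate transporter of many other hypothalamic neurons and named with its value known, was at 5.40 in KO and 9.11 in HET. Its difference of -4.29 (SD 2.32 over 11 probe sets) was the lowest of all evaluated genes. The part of other neuron types in the Nova1 difference was not tested. In such bulk samples, fewer cells of a type and less RNA per cell cannot be told apart.

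Qk, which encodes the Quaking proteins that direct splicing and export of myelin mRNAs in oligodendrocytes and also act in astrocytes, was lower in KO by 2.48-fold. Its 18 probe sets past the floor ran from 6.56 to 10.87 in KO (median 8.74), against 7.93 to 12.24 in HET (median 10.19). All 18 were lower, 12 of them by at least 2-fold, and the gene difference was -1.31 (SD 0.61 over 18 probe sets). The largest probe set difference was -2.36, at 6.56 in KO and 8.92 in HET, and the smallest was -0.38, at 8.85 and 9.24. The 4 Qk probe sets under the floor were lower too, with a median of -0.51. Of all members Qk thus held the most probe sets that were lower without exception. Among genes with at least 5 probe sets, 3 of 92 members had all of them lower (Nova1, Qk and Rbm15b), where 2.53% of all such genes did.

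Markers of the oligodendrocyte lineage were lower alongside Qk. Over all evaluated genes, 34.8% lay above 0 and 1.12% were called lower. All 7 evaluated mature oligodendrocyte markers were below 0, with a median of -1.46, and 5 of them were called lower. The levels of these 7 ran from 6.66 to 8.68 in KO and from 8.19 to 9.52 in HET, with sums of 51.4 and 63.2. The scale has no true 0. None of these levels was under the floor in either genotype, but the floor applied to the mean over both arrays. A probe set can thus pass through a bright HET array, and these levels do not show that the RNAs were present in KO. The lowest was Ugt8a, an enzyme of myelin lipid synthesis, at -2.98. All 7 oligodendrocyte precursor markers were below 0 as well, with a median of -0.51 and 3 called lower (Pdgfra, Gpr17 and Enpp6). Gpr17 is also the receptor named in the series title. Olig1, Cspg4, Olig2 and Sox10 were not called, at -0.51, -0.48, -0.42 and -0.09. Sox10 had 4 of 9 probe sets higher and lay above the -0.11 of all genes. Levels of these 7 precursor markers ran from 6.26 to 8.47 in KO and from 7.54 to 8.89 in HET, with sums of 49.1 and 56.8. Markers of astrocytes, another cell type that uses Qk, had a median of -0.16 with 3 of 8 above 0 and sums of 62.1 and 62.3. Tanycyte and microglia markers had medians of -0.21 and -0.12, with 1 of 6 and 2 of 6 above 0. All 7 endothelial and pericyte markers were also below 0, with a median of -0.33 and 0 called lower. The 2 evaluated erythroid markers were at 0.32 (Alas2, a haem synthesis enzyme) and 1.05 (Hbb-b1, a haemoglobin chain, called higher with 3 of 3 probe sets). The part of oligodendrocyte RNA in the Qk difference was not tested.

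**Figure D2:**
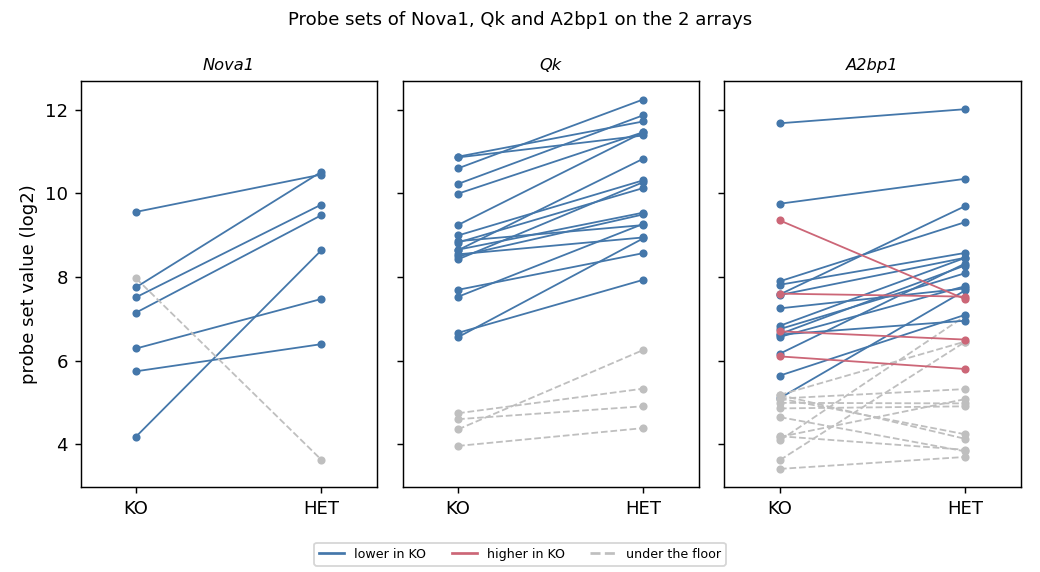
Every probe set of Nova1, Qk and A2bp1 in KO (left of each panel) and HET (right), in log2 values joined by a line. Blue lines are lower in KO, red lines higher, and dashed grey lines lie under the floor. All 18 Qk lines and all 7 Nova1 lines past the floor are lower at the KO end, and 1 grey Nova1 line stands at 7.96 in KO and 3.63 in HET.

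A2bp1 is the older symbol of Rbfox1, a neuronal regulator that binds a short conserved element next to alternative exons. It stood at 6.83 in KO and 8.09 in HET. The difference was -0.89 (SD 1.05 over 19 probe sets), with 15 of the 19 lower and 9 of these by at least 2-fold. Against this, 1 probe set was at 9.35 in KO and 7.47 in HET, a difference of 1.88. The 2 probe sets with the most signal differed less, at 11.67 in KO and 12.01 in HET for one and at 9.75 and 10.34 for the other. With no floor the A2bp1 difference was -0.59. Rbm9, the older symbol of the related Rbfox2 and counted below with the Rbm genes, was at -0.31 (SD 0.84, 16 of 23 probe sets lower), with 9.20 in KO and 9.77 in HET.

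The other tissue-restricted regulators had differences between -0.28 and 0.34, and none was called at 2-fold or 1.5-fold. Msi1, a Musashi translational regulator of neural progenitors, was at 7.32 in KO and 7.79 in HET, a difference of -0.28 (9 of 12 probe sets lower). Its paralog Msi2 was at 0.12 (16 of 29 higher). Cugbp1 and Cugbp2, older symbols of Celf1 and Celf2, which act on splicing and on mRNA decay, were at -0.27 and -0.21. Cugbp2 was uneven across its probe sets: 9 of 36 lay 2-fold or more below HET and 1 that far above, with extremes of -3.63 and 4.49.

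The Elavl genes encode Hu proteins, which bind AU-rich sequences and stabilise mRNA. Elavl1, the widely expressed member, was at 9.45 in KO and 9.24 in HET, a difference of 0.28 with 11 of 15 probe sets higher (SD 0.69). The neuronal members were near 0, with Elavl2 at 0.06 (SD 0.65), Elavl3 at -0.16 (SD 0.66) and Elavl4 at 0.13 (SD 1.00). Elavl4 changed sign with no floor, at -0.01. Each of these values is smaller than the SD over its own probe sets.

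Mbnl proteins drive the switch to adult splice forms, and their genes lay on both sides of 0. Mbnl2, the main brain form, had a difference of 0.34 with 13 of 20 probe sets higher (SD 0.61). Its levels, 9.55 in KO and 9.66 in HET, went the other way. Mbnl1 was at -0.10 (12 of 25 higher), with levels of 9.64 in KO and 8.99 in HET. Mbnl3 was at -0.06 over 4 probe sets, with levels of 6.69 and 6.60. Centring on the median over genes turned the differences of Mbnl1 and Mbnl3 to values above 0. Ptbp1, which represses neuronal exons in other cell types, was at 8.20 in KO and 7.74 in HET, a difference of 0.26 with 16 of 28 probe sets higher (SD 0.83). Ptbp2, its neuronal counterpart, was at 0.14 (SD 0.58, 13 of 18 higher), though its levels were 9.50 in KO and 9.60 in HET. Over all 17 tissue-restricted regulators the median was -0.10, and 7 lay above 0, while with centring the median was 0.01. Of their 313 probe sets past the floor, 17.9% lay 2-fold or more below HET and 7.67% 2-fold or more above it. Over all 215976 probe sets with 1 symbol past the floor, 11% were that far below and 9.24% that far above. Of the group's 56 probe sets that far below, Qk held 12, A2bp1 9 and Nova1 5. The share is therefore not spread evenly over the 17 regulators.

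The SR group had the highest median of the 4 groups. Its 19 genes had a median of 0.21, against -0.11 over all genes. Of these 19, 12 or 63.2% lay above 0, where 34.8% of all genes did. The 9 genes whose current symbol begins with Srsf, a subset taken after values were seen, had a median of 0.30, with 7 above 0. The other 10 genes of the group had a median of 4e-05, with 5 above 0. Of the group's 397 probe sets past the floor, 12.3% lay 2-fold or more above HET and 8.31% 2-fold or more below it. Over all probe sets with 1 symbol past the floor, 9.24% were that far above and 11% that far below. Of the group's 49 probe sets that far above, Sfrs7 held 7, and Sfrs12ip1 and Sfrs17b 3 each. The group's median stayed above 0 in each of the 9 alternatives in which it was computed, from 0.14 with no floor to 0.32 with centring.

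Sfrs7, now Srsf7, an SR protein that also hands spliced mRNA to the export machinery, was the gene of this group with every probe set past the floor on one side of 0. Its 19 probe sets past the floor ran from 6.98 to 12.53 in KO (median 10.71), against 5.31 to 12.20 in HET (median 9.48). All 19 were higher in KO, 7 of them by at least 2-fold, and the gene difference was 0.71 (SD 0.69 over 19 probe sets). Its smallest probe set difference was 0.33 and its largest 2.46. The 1 Sfrs7 probe set under the floor was lower, at 5.34 in KO and 5.89 in HET. Among genes with at least 5 probe sets, 2 of 92 members had all of them higher (Sfrs7 and Rbm8a), where 1.48% of all such genes did. Rbm8a, the exon junction complex subunit also called Y14, did so at a small size, at 10.46 in KO and 10.05 in HET (difference 0.26, SD 0.23 over 9 probe sets).

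Sfrs12ip1, now Srek1ip1, which encodes a partner of the SR-related protein Srek1, was the 1 member called 2-fold higher. Its 6 probe sets past the floor ran from 6.13 to 10.11 in KO (median 8.33), against 5.51 to 9.45 in HET (median 6.17). The difference was 1.49 (SD 1.80, 5 of 6 probe sets higher), or 2.80-fold. The 5 values above 0 were 3.61, 2.80, 2.31, 0.66 and 0.14, and the 1 below was -1.13, so the size rests on 3 probe sets. With no floor the difference was 0.72 over 10 probe sets and the call was lost. Sfrs12, now Srek1, the partner itself, was at 9.62 in KO and 8.83 in HET, a difference of 0.52 with 20 of 30 probe sets higher (SD 1.09).

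Sfrs17b, now Akap17b, was at 9.66 in KO and 8.82 in HET, a difference of 0.74 with 7 of 9 probe sets higher (SD 0.79). Sfrs5, now Srsf5, was at 11.12 in KO and 10.35 in HET, a difference of 0.46 (SD 0.46, 21 of 26 higher). Sfrs11, now Srsf11, was at 0.48 (18 of 25 higher) and Sfrs1, now Srsf1, the founding SR protein, at 0.30 (18 of 22 higher). Sfrs3, now Srsf3, an export adaptor like Srsf7, was at 0.17 (14 of 17 higher). Not all SR genes went this way. Sfrs4, now Srsf4, was at 8.60 in KO and 9.28 in HET, a difference of -0.51 (SD 0.83, 17 of 19 probe sets lower). Sfrs8, now Sfswap, a regulator that controls splicing of its own RNA, was at -0.54 (SD 0.81, 23 of 31 lower). Sfrs16, now Clasrp, a partner of an SR protein kinase, was at -0.24 (19 of 29 lower). The other 8 genes of the group lay between -0.19 for Sfrs15, now Scaf4, and 0.34 for Sfrs6, now Srsf6, with 4 above 0.

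**Figure D3:**
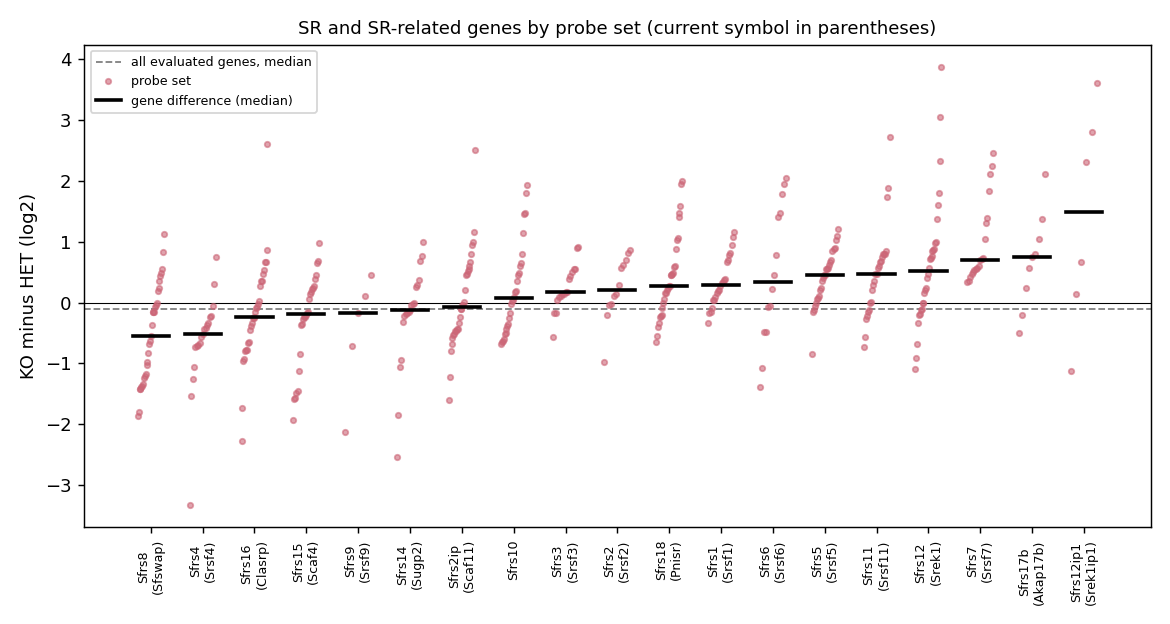
Differences (KO minus HET, log2) of every probe set past the floor for the 19 SR and SR-related genes, ordered by gene difference, with the gene's median as a black bar. Sfrs7 is the gene whose 19 points all lie above 0, and Sfrs12ip1 at the right has 6 points from -1.13 to 3.61.

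The hnRNP genes differed little. Their 20 members had a median of 0.05 with 11 above 0, and none was called at 2-fold or at 1.5-fold. With the floor at the 75th percentile this median was -0.003. Of their 496 probe sets past the floor, 5.65% lay 2-fold or more above HET and 6.25% 2-fold or more below it. Both shares were below those over all probe sets. The group was also brighter, with a median KO level of 10.12 against 7.54 over all genes, and the part of level in these shares was not tested. Hnrnpa2b1, which carries selected mRNAs into dendrites, had the highest difference, 0.35 with 25 of 34 probe sets higher (SD 0.67). It was at 10.42 in KO and 9.73 in HET. Hnrnpu, a nuclear scaffold protein, was at 0.30 (SD 0.31, 21 of 24 higher) and Hnrpdl, now Hnrnpdl, at 0.28 (10 of 19 higher).

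At the other end were Hnrnph2 at -0.57, Hnrnpd at -0.53 and Hnrnpul2 at -0.53. Hnrnpd, which binds AU-rich elements and speeds mRNA decay, was lower in 18 of 20 probe sets, 5 of them by at least 2-fold, with levels of 9.60 in KO and 9.64 in HET. Hnrnph2 was mixed, with 9 of 14 probe sets lower, and its difference was -0.36 with no floor. Hnrnpul2 was lower in 16 of 21 probe sets. Hnrnpr, which acts in axonal mRNA transport, was at 9.30 in KO and 10.05 in HET, a difference of -0.49, and was lower in 27 of 32 probe sets. Hnrnpa3 and Hnrnpk, with 88 and 35 probe sets past the floor, were at -0.02 (SD 0.46) and 0.09 (SD 0.53). Hnrnpa3 changed sign with centring, at 0.09. The other 11 hnRNP genes lay between -0.16 for Hnrnpab and 0.27 for Hnrnph3. Several hnRNP genes have near-identical copies in the genome. Probe sets shared between gene symbols were left out, and signal from copies without a symbol here cannot be told apart.

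The numbered Rbm genes, a set named for an RNA recognition motif rather than a common function, had a median of -0.08 over 37 evaluated genes, with 14 above 0. Centring moved this median to 0.03. Rbm10, an X-linked regulator that promotes exon skipping, was lowest at 7.76 in KO and 8.48 in HET. Its difference was -0.85 (SD 0.84 over 38 probe sets), with 34 of 38 lower and 15 of these by at least 2-fold. Its probe sets ran from 5.37 to 9.81 in KO and from 5.44 to 11.16 in HET, and 1 of the 38 was at least 2-fold higher. Its relative Rbm5 was lower by less, at -0.34 (SD 0.33, 25 of 32 probe sets lower). Rbm17, a spliceosome-associated factor, was at -0.45 (8 of 12 lower). Rbm35a, now Esrp1, an epithelial splicing regulator, was at -0.46 over 7 of its 25 probe sets and at -0.09 with no floor. Rbm39, a coactivator with SR-like features, was at 0.10 over 46 probe sets.

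Rbm41 had the highest difference of the Rbm set, at 0.89 (SD 2.21 over 12 probe sets), with 8.01 in KO and 6.08 in HET. Of these 12 probe sets, 5 were under the floor in HET, and the largest stood at 9.94 in KO and 4.58 in HET. With no floor Rbm41 was at 0.22 over 23 probe sets, and with the floor at the 75th percentile it was at -0.02. Rbm4b, a splicing factor close in sequence to Rbm4, was at 0.49 (5 of 6 probe sets higher) while Rbm4 was at -0.06. Rbm15, which guides the RNA methylation machinery, was at 0.42 (5 of 8 higher). Rbm28, a nucleolar protein, was at 8.44 in KO and 7.91 in HET, a difference of 0.36 (16 of 20 probe sets higher). Of the remaining Rbm genes the lowest were Rbm27 at -0.38, Rbm7 at -0.36 and Rbm35b, now Esrp2, at -0.34, and the highest Rbm34 at 0.25. Rbm3, a cold-induced RNA-binding protein, was at -0.12 (13 of 29 higher), and Rbm20, a splicing factor of heart muscle, at 0.07 (5 of 10 higher). The 2 members that were not evaluated, Rbm31y and Rbm46, had 0 and 2 probe sets past the floor.

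Spread within a gene is a property that exon-level probe sets can show. Of 93 members, 37 had at least 1 probe set 2-fold higher and at least 1 2-fold lower, or 39.8%, where 28.8% of all evaluated genes did. Members had a median of 19 probe sets past the floor and all genes 10. The median SD over probe sets was 0.71 for members and 0.68 for all genes. The widest was Rbm14, a coactivator and paraspeckle protein, with an SD of 2.41 around a gene difference of 0.17. Of its 11 probe sets, 1 stood at 10.50 in KO and 3.89 in HET, a second at 10.38 and 6.26, and 1 ran the other way at 5.24 and 7.40. The other 8 differed by between -0.40 and 1.22. Rbm45, an RNA-binding protein of neural cells, had an SD of 1.51 over 10 probe sets, with 1 at 9.25 in KO and 5.28 in HET while its gene difference was 0.18. No exon positions were used here, so these values are not assigned to splice forms.

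**Figure D4:**
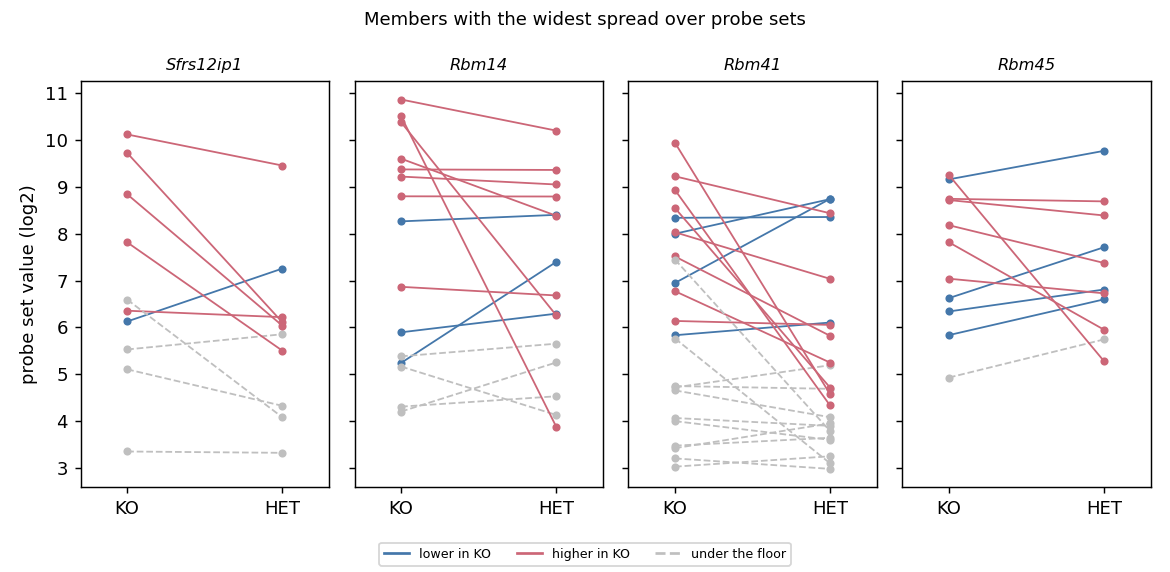
Every probe set of the 4 members with the largest SD over at least 5 probe sets, in KO (left of each panel) and HET (right), in log2 values. Red lines are higher in KO, blue lines lower, and dashed grey lines lie under the floor. In Rbm14 a line at 10.50 in KO and 3.89 in HET runs beside others that are nearly flat.

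The rest of the splicing machinery was read from lists of genes outside the symbol rule. Of 32 evaluated core spliceosome genes, 14 were above 0, the median was -0.06, and 2 were called 2-fold higher, where 1.13% of all genes were, and 0 lower. Both called genes encode Sm proteins, the ring that packs spliceosomal RNAs, while the Sm genes Snrpb, Snrpd3 and Snrpf were at -0.07, 0.49 and 0.52 and not called. Snrpe was at 10.62 in KO and 9.55 in HET, a difference of 1.23 with 6 of 6 probe sets higher (SD 0.49). Snrpd1 was at 9.06 in KO and 7.46 in HET, a difference of 1.14 (SD 0.93, 10 of 10 higher). The lowest core gene was Ddx23, a spliceosomal helicase, at -0.90 (21 of 23 probe sets lower).

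Among 34 other splicing and RNA-binding factors the median was -0.06 with 13 above 0, and the extremes were Tial1 at 0.75 and Srrm4 at -0.61. Tial1 binds U-rich sequences next to splice sites (23 of 25 probe sets higher), and Srrm4 promotes neuronal microexons (14 of 19 lower). The 10 genes for the kinases and the importer of SR proteins had a median of -0.08, from 0.36 for Clk4 to -0.36 for Clk3. Exon junction and nonsense-mediated decay genes had a median of -0.12 over 8 genes, with Casc3, a subunit of the junction complex, lower in 16 of 16 probe sets at -0.91 and Smg1 highest at 0.32. The 15 genes of mRNA transport and translational control had a median of -0.17. Their extremes were Cpeb1, which controls polyadenylation and translation, at 0.68 (15 of 15 probe sets higher) and Stau2, a dendritic transport factor, at -0.46. Apart from the 2 Sm genes no gene of these 5 lists was called.

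**Figure D5:**
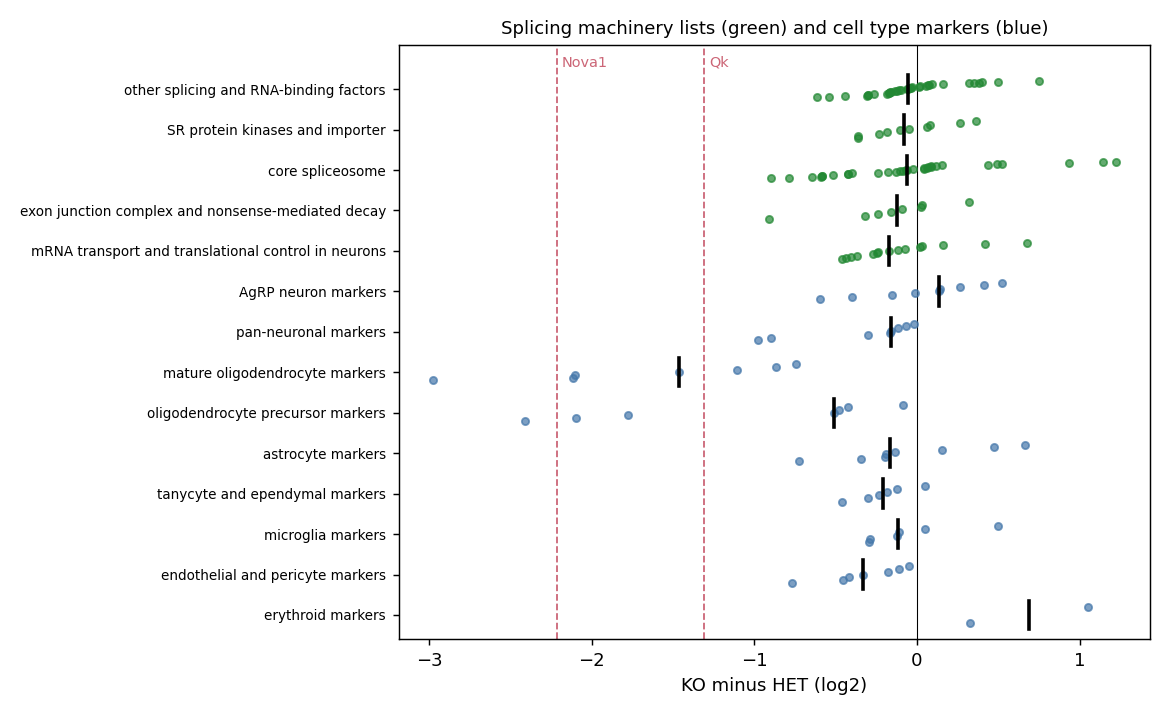
Differences (KO minus HET, log2) of the evaluated genes of 5 splicing and RNA lists (green) and 9 cell type marker lists (blue), with list medians as black bars and the values of Nova1 and Qk as dashed lines. Mature oligodendrocyte markers centre on -1.46, next to Qk at -1.31, while the green lists centre between -0.17 and -0.06.

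Promoter sequence is shown for the 3 members called at 2-fold, since FoxO1 is itself a DNA-binding factor. It is also shown for Rbm10, the lowest Rbm gene, picked from the 3 members whose window held the letters searched. The letters GTAAACA, the core that FoxO proteins bind, were searched on both strands in the 250 bases before each start in RefSeq (GRCm38.p6). Of 80 members with a promoter entry, 3 held a match (Rbm10, Rbm42 and Sfrs6), or 3.75%, against 3.54% of all 27025 genes with one. The 3 members had differences of -0.85, -0.16 and 0.34, in both directions. No match lay in the windows of Nova1 (chr12:46818768-46819017, minus strand), Qk (chr17:10319362-10319611, minus strand) or Sfrs12ip1 (chr13:104816920-104817169, plus strand). In Rbm10 (chrX:20617253-20617502, plus strand) the match starts at -105 and lies on the strand opposite to the gene, printed as its reverse complement in capitals. A match is letters only, and a window without one says nothing of FoxO1 binding.
Nova1: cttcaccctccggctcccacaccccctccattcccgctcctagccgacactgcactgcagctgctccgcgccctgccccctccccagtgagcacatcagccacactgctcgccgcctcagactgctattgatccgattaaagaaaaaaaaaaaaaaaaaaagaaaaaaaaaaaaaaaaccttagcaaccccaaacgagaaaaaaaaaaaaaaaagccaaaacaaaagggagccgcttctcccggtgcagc
Qk: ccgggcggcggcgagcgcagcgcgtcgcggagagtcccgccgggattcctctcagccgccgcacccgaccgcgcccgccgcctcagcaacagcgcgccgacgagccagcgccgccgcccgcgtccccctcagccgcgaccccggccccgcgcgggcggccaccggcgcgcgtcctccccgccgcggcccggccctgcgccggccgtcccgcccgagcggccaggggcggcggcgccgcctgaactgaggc
Sfrs12ip1: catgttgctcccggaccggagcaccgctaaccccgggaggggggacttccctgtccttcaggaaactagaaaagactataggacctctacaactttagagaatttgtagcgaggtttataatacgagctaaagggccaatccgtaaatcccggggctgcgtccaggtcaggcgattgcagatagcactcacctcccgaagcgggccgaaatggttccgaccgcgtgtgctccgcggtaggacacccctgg
Rbm10: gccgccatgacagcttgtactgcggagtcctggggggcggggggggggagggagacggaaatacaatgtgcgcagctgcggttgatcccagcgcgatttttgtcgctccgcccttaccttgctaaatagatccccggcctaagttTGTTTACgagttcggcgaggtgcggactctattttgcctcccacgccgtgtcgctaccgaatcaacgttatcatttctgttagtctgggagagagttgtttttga
The Qk window is 84.8% G and C, and the Nova1 window, at 50% G and C, holds long runs of A.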

How the data were processed

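Per the labels, total RNA was extracted with Trizol and turned into labelled cRNA by a Nugen procedure. The deposited values are 1 number per probe set and array, and their range fits a log2 scale. The authors used RMA and Partek, per the submitters' processing notes. RMA usually equalises the distributions of arrays, which would hide a global shift. No depth exists for arrays, and their number, 1 per genotype, limits the precision. Of 1235936 probe sets, 318760 had 1 symbol in the platform annotation and were used. For 5 members, 72 further probe sets with several symbols were left out. Of the 95 member symbols, 67 were unchanged on lookup in RefSeq's gene table (GRCm38.p6) and 28 were replaced by a current symbol. Sfrs10 is an older symbol of more than 1 gene and keeps its name. A probe set can pass the floor through 1 bright array. Members and lists were chosen with earlier results of these data known. Named were members past the rule, the 3 highest and 3 lowest and the 2 with the highest HET level of each group, all tissue-restricted regulators, the 4 widest members, and the extremes of each list. Other genes were named with their values known. The summary per gene was first tested on simulated data. Differences were shuffled among probe sets of like level, and the same shift was added to every probe set of a chosen gene. That setting does not cover shifts confined to some probe sets of a gene. Alternatives are described in the closing section. Python 3.11.15, numpy 2.4.6, pandas 2.3.3 and matplotlib 3.10.9 were used.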

Additional observations from a re-analysis of the deposited data

How the results depend on the processing

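The 2 members called lower were Nova1 and Qk under each of the 10 alternatives of floor, summary, probe set number, normalisation, centring and annotation. Nova1 ran from -2.27 to -1.70 there and Qk from -1.33 to -1.20. The count called higher was 0 with no floor and otherwise 1 under these 10. A 1.5-fold rule, which is wider by construction, gave 3 higher and 4 lower. Without the rule on agreement the counts stayed at 1 and 2. Centring gave 254 higher and 131 lower calls over all genes, against 188 and 186 without it. Members above 0 ran from 41 to 55, and the median over members from -0.06 to 0.05, above 0 with the mean over probe sets, trend removal or centring. With the floor at the 75th percentile, added after seeing the data, 99 of 1427 member probe sets were at least 2-fold higher, against 159 of 1795, and the cause was not tested. No paired analysis was possible because each genotype has 1 array.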

Other observations

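Relatives of the members stand on these arrays under older symbols that the rule does not match. The other Celf genes, named Tnrc4 and Brunol4 to Brunol6 on the platform, lay near or below the median of all genes, -0.11: Celf3 was at -0.34 (SD 1.05, 17 of 25 probe sets lower), Celf4 at -0.21 (14 of 24 lower), Celf5 at -0.11 (9 of 15 lower) and Celf6 at -0.25 (9 of 14 lower). Celf3 stood at 8.76 in KO and 8.99 in HET, and Celf4 at 8.75 and 9.14. Srsf10, an SR protein listed as Fusip1, was at 8.30 in KO and 7.72 in HET, a difference of 0.34 with 18 of 24 probe sets higher (SD 1.06). Ptbp3, listed as Rod1, was at -0.11 with an SD of 2.07 over 14 probe sets, 7 on each side of 0, and 1 of them was 6.44 higher in KO. Rbm33 was at -0.26 (25 of 38 probe sets lower) and Rbm48 at 0.38 (6 of 10 higher). None of these 8 genes was called at 2-fold.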
